A study of Mus musculus with 8 samples.

Results

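The genes described here encode the extracellular matrix and the enzymes that crosslink it. They are the 79 rows of the deposited table, out of 14980, whose symbol names a collagen chain, a laminin chain, a fibulin, fibrillin 1 or 2 or a lysyl oxidase, or is one of 21 further matrix genes listed by name, such as Dcn, Sparc and Fn1. They were chosen by name, with no measured value. The libraries were made from colonic lamina propria macrophages sorted as MHCII+CD64+ and divided into a GPR35-positive and a GPR35-negative population, and the series asks how these populations differ. All 4 animals were male mice, and each gave both populations, so there were 4 GPR35-positive and 4 GPR35-negative libraries and a replicate is an animal. The labels used here give no strain, age, genotype or treatment, and they do not say how GPR35 was detected. Before the sort, EDTA took off the epithelium and collagenase with DNase dissociated the rest, so every library comes from tissue whose matrix had been enzymatically opened.

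The extracellular matrix of the gut wall is built from fibrillar collagens that carry tension, from a basement membrane of collagen IV, laminins, nidogens and perlecan under epithelium and around vessels, and from elastic fibres of elastin on a fibrillin scaffold. Small proteoglycans regulate the width of collagen fibrils, lysyl oxidases crosslink collagen and elastin, and matricellular proteins such as periostin and tenascin C modulate how cells attach. Fibroblasts, pericytes, smooth muscle and endothelial cells are the main producers of these proteins in the lamina propria. Macrophages are better known for taking up and degrading matrix, with fibronectin among the matrix proteins that they do make.

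Library totals ran from 33.8 to 48.6 M counts in the GPR35-positive libraries and from 16 to 30.1 M counts in the GPR35-negative libraries. Gpr35 itself, the basis of the sort, averaged 73.3 ± 14.9 CPM in GPR35-positive and 2.96 ± 1.46 CPM in GPR35-negative libraries (SD, n = 4 each; counts per M reads, scaled by the trimmed mean of M-values). The 20 macrophage markers checked summed to 49187 to 58567 CPM in GPR35-positive libraries and to 24283, 12037, 5577 and 7525 CPM in GPR35-negative replicates 1 to 4. All 20 were higher in the GPR35-positive libraries by the edgeR quasi-likelihood test with Benjamini-Hochberg adjustment, and 11 remained past the threshold without replicate 2, as without replicate 4. Of all 14184 tested genes, 2617 or 18.5% were higher in the same fit. Without replicate 4, 1624 genes were higher. The 8 plasma cell markers summed to 1151 to 2588 CPM in GPR35-positive and 73110 to 142640 CPM in GPR35-negative libraries, so the libraries labelled GPR35-negative macrophages carried abundant plasma cell RNA. Jchain made up most of these sums, at 665 to 2072 CPM in GPR35-positive and 67740 to 134241 CPM in GPR35-negative libraries. In bulk samples such as these, fewer cells of a type and less RNA per cell cannot be told apart.

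Matrix transcripts were scarcer in GPR35-positive macrophages. Of the 72 members with enough counts to test, 49 fell, 2 were higher and 21 did not pass an adjusted p of 0.05. Across all 14184 tested genes, 19.5% were lower and 18.5% were higher by the same test. The median log2 fold change of the tested members, GPR35-positive minus GPR35-negative, was -2.95, against -0.05 for all tested genes. Members that fell did so by 1.21 to 4.17 on the log2 scale, 30 of them by at least 8-fold, with adjusted p between 5.43e-05 and 0.0476. Each of the 49 was lower in the GPR35-positive library of all 4 animals, and for 45 of them the ranges of the groups did not overlap. Both counts are among genes already called lower, which the test favours, and no share over all genes was computed for the first. Among all members, called or not, 48 had non-overlapping ranges that were lower in GPR35-positive libraries, against 20.6% of all tested genes. Ranges that did not overlap and were higher in GPR35-positive libraries occurred for 3 members, Col11a2, Loxl3 and Fn1, and for 21.5% of all tested genes.

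As a share of all counts, the 79 genes took 0.114%, 0.0623%, 0.219% and 0.133% in GPR35-positive replicates 1 to 4, and 1.02%, 0.621%, 1.55% and 1.47% in GPR35-negative replicates 1 to 4. The groups did not overlap. The mean share was 0.132 ± 0.0651% in GPR35-positive and 1.17 ± 0.432% in GPR35-negative libraries (SD, n = 4 each), an 8.85-fold higher share in the GPR35-negative ones. Within animals the GPR35-negative share was 9.01, 9.97, 7.1 and 11.1 times the GPR35-positive one for replicates 1 to 4. Among the 49 genes that fell, GPR35-positive replicate 2 had the lowest GPR35-positive level for 45, and GPR35-positive replicate 3 the highest for 43. GPR35-negative replicate 2 was likewise the lowest of its group for 41 of them.

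**Figure D1:**
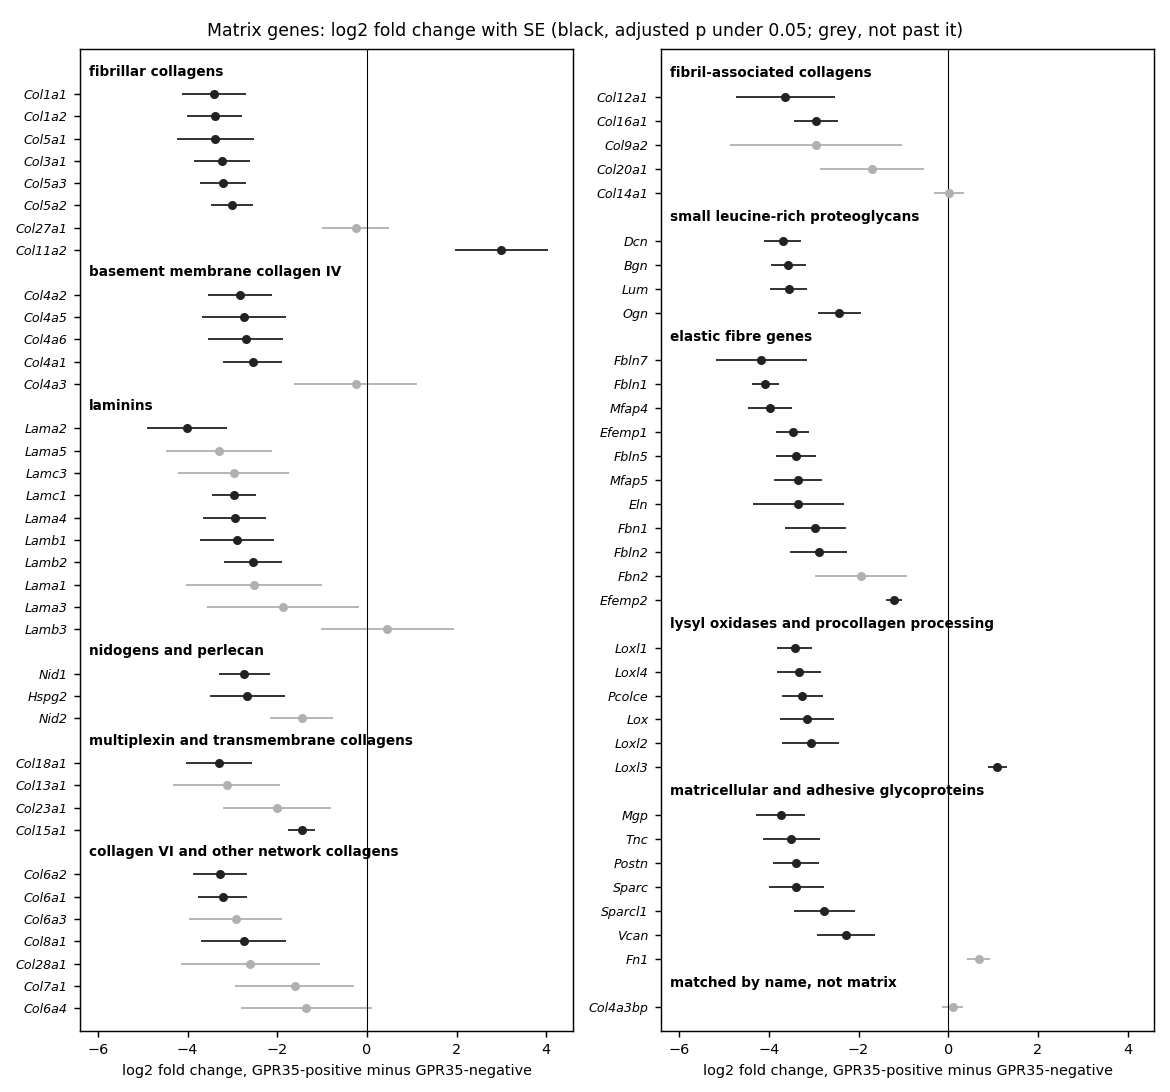
Log2 fold change, GPR35-positive minus GPR35-negative, of 71 of the 72 tested members by role, with the SE as a bar; black points passed an adjusted p of 0.05 in the edgeR test and grey points did not. Most groups lie left of 0 as a block with a median of -2.95, while Col11a2 (3.00), Loxl3 (1.10) and Fn1 (0.68) lie to the right; scaled to macrophage markers, Loxl3 (-1.39) and Fn1 (-1.97) lie to the left.

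The 7 members with too few counts to test were Col4a4, Col26a1, Col8a2, Col6a5, Col9a3, Col11a1 and Fmod, which reached at most 4.83 CPM or 121 counts in any library. Col26a1 was at 0 counts in all 4 GPR35-positive libraries and at 11, 23, 3 and 0 counts in GPR35-negative replicates 1 to 4. A gene can pass the count filter through its higher group alone, and 22 of the tested members had fewer than 4 GPR35-positive libraries at the filter level of 0.313 CPM. Of the 47 members at that level in all 8 libraries, 41 fell and 1 was higher, with a median of -3.15. For comparison, 2238 of the 11814 genes of the table at that level in all 8 libraries fell, with a median of 0.04.

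The count of falling members depended most on replicate 4, without which 30 fell, against 51 without replicate 2. All genes together gave 1680 falling genes without replicate 4, against 2769 with it. With the animal as a block, 54 members fell and 2 were higher, where 20% of all tested genes were lower and 19.4% higher. The 5 that the block added were Col6a3, Col13a1, Lama5, Nid2 and Col9a2, and it removed none. In 12 leave-out fits, each without 1 of the 4 animals or 1 of the 8 libraries, 29 of the 49 falling members passed every time.

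Fibrillar collagens form the tension-bearing fibres, and 9 of their genes were in the table. Of the 8 tested, 6 fell, Col11a2 was higher and Col27a1 did not pass (log2 fold change -0.25 ± 0.75 SE, adjusted p = 0.811). Col3a1, the type III chain of distensible tissues, had 282, 48.9, 459 and 278 CPM in GPR35-positive replicates 1 to 4, against 2610, 1149, 3242 and 3017 CPM in GPR35-negative ones. The highest GPR35-positive library thus lay well below the lowest GPR35-negative one, with a log2 fold change of -3.23 ± 0.63 (SE; edgeR adjusted p = 0.00431). Col1a1, one chain of type I collagen, had 27.7, 4.02, 52 and 27.2 CPM in GPR35-positive replicates 1 to 4, against 241, 117, 343 and 480 CPM in GPR35-negative ones (-3.41 ± 0.72, adjusted p = 0.00631). Its partner chain Col1a2 had 59.6, 13.9, 105 and 63.2 CPM in GPR35-positive libraries, against 696, 256, 759 and 839 CPM in GPR35-negative libraries (-3.40 ± 0.61, adjusted p = 0.00306). For all 3 genes replicate 2 was the lowest in both groups. Type V collagen, which sets fibril diameter, fell in all 3 chains: Col5a1 by 3.38, Col5a2 by 3.02 and Col5a3 by 3.21 on the log2 scale. The adjusted p of Col5a1 was 0.0535 without replicate 1 and 0.0839 without replicate 4.

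Col11a2, a minor fibril chain best known from cartilage, ran the other way. It had 13.4, 9.77, 10.1 and 6.56 CPM in GPR35-positive replicates 1 to 4, against 1.22, 3.21, 0.639 and 0 CPM in GPR35-negative ones. The ranges did not overlap, with a log2 fold change of 3.00 ± 1.03 (edgeR adjusted p = 0.0467). The call sat at the threshold: leaving out replicate 1, replicate 3, any single GPR35-positive library or GPR35-negative replicate 1 or 3 moved the adjusted p to between 0.0772 and 0.16, and scaling by library size gave 0.058. Scaled to macrophage markers its log2 fold change was 0.71 (adjusted p = 0.52). The start-site windows of 2 falling fibrillar genes and of Col11a2, which was higher, are printed here so that they can be read side by side. Each runs 5′ to 3′ on the gene's strand from 250 bases before to 50 bases after a listed start, from RefSeq on GRCm38.p6. Matches to CCAAT or TATAAA on either strand are in capitals. The Col11a2 window is set on a start downstream of the first RefSeq base of the gene, 34038919. Col1a2 is chr6:4505368-4505667 (+), Col3a1 chr1:45311288-45311587 (+) and Col11a2 chr17:34038888-34039187 (+).
Col1a2: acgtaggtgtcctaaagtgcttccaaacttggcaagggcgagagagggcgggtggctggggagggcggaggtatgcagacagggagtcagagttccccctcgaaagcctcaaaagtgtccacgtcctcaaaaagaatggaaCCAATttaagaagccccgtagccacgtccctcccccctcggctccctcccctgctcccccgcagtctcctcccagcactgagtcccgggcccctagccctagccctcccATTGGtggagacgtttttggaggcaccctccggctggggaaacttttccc
Col3a1: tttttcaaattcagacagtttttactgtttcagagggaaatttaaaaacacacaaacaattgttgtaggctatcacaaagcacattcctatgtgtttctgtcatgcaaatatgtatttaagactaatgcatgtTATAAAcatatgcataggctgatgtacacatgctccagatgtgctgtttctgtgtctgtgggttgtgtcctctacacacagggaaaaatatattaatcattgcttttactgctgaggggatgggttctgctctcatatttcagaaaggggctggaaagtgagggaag
Col11a2: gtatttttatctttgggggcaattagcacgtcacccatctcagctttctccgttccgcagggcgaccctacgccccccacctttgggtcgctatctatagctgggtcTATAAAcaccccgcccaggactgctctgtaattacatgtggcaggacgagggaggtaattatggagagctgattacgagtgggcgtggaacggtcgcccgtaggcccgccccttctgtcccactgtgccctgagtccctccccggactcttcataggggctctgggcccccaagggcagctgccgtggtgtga
The Col1a2 window held 2 CCAAT matches, 1 on each strand, and the Col3a1 and Col11a2 windows held 1 TATAAA match each. CCAAT occurred on either strand in 27.9% of the 61 windows listed for 52 members, against 37.4% of all 32851 windows, and TATAAA in 11.5% against 13.6%. These matches describe the letters only.

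**Figure D2:**
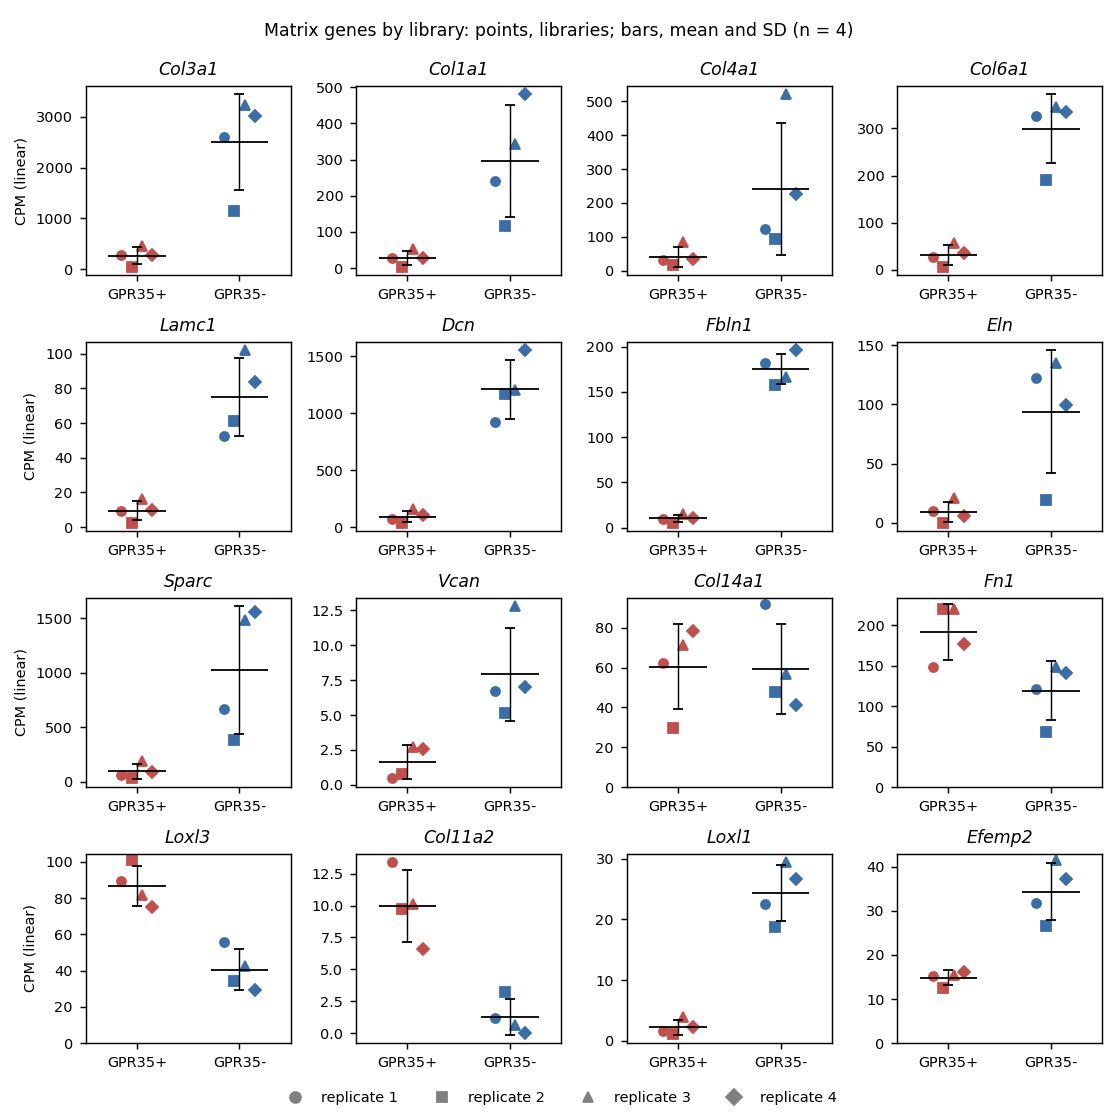
CPM on linear axes for 16 matrix genes in the GPR35-positive and GPR35-negative libraries; symbols are the 4 animals, and the lines give the mean and SD of each group. In 12 panels the GPR35-positive mean is below the GPR35-negative one, least for Efemp2 at 14.8 against 34.3 CPM, whereas Col14a1 has similar means (60.4 and 59.4 CPM) and Fn1, Loxl3 and Col11a2 are at 191, 86.7 and 9.95 CPM in GPR35-positive against 119, 40.5 and 1.27 CPM in GPR35-negative libraries; scaled to macrophage markers, Fn1, Loxl3 and Col14a1 lie lower in GPR35-positive libraries.

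Basement membrane genes fell as well. Collagen IV is the network-forming collagen of basement membranes, and 4 of its 5 tested chains fell. Col4a1 had 31.6, 15.5, 84.1 and 33.8 CPM in GPR35-positive replicates 1 to 4, against 123, 92.2, 521 and 227 CPM in GPR35-negative ones. Col4a2, which trimerises with it, had 14.1, 5.22, 46 and 18.7 CPM in GPR35-positive libraries, against 70.9, 65.5, 283 and 177 CPM in GPR35-negative libraries. Replicate 3 was the highest in both groups for both genes, and the groups did not overlap. Their log2 fold changes were -2.55 ± 0.66 for Col4a1 (edgeR adjusted p = 0.0162) and -2.83 ± 0.71 for Col4a2 (adjusted p = 0.0139). Without replicate 4 the adjusted p was 0.0855 for Col4a1 and 0.0835 for Col4a2, and without GPR35-positive replicate 1 or 4 it was 0.0506 for Col4a1. The low-level chains Col4a5 (-2.75 ± 0.94) and Col4a6 (-2.71 ± 0.83) also fell. The Col4a5 call ended in 10 of the 12 leave-out fits, all but those without replicate 2 or GPR35-positive replicate 2, at adjusted p of 0.0625 to 0.163. The Col4a6 call ended in 8 of them, at 0.0537 to 0.134, without replicate 1, 3 or 4, GPR35-positive replicate 1, 3 or 4, or GPR35-negative replicate 1 or 3.

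Col4a1 and Col4a2 lie head to head on chromosome 8, and the libraries do not mark strand, which is why their shared start region is shown. The windows are Col4a1 at chr8:11312777-11313076 (-) and Col4a2 at chr8:11312555-11312854 (+), RefSeq on GRCm38.p6, each written 5′ to 3′ on its own strand. The Col4a1 window is set on a start downstream of the first RefSeq base of that gene. The 78 bases that both windows hold, from 11312777 to 11312854, are in capitals and read as reverse complements of each other.
Col4a1: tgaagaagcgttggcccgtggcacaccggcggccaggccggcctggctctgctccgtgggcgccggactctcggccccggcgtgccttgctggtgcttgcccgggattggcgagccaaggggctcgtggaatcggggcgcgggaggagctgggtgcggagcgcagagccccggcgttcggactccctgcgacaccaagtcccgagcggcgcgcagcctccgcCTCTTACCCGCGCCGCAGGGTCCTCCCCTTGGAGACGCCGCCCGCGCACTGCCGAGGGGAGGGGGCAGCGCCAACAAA
Col4a2: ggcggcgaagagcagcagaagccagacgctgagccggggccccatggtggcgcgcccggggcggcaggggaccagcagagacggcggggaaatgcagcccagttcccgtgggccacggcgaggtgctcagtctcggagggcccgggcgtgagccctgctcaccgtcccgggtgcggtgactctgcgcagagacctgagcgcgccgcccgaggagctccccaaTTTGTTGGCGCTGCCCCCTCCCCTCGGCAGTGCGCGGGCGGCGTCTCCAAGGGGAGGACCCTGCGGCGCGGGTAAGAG
In the exon models used, the pair overlaps by 22 bases on opposite strands, of the 6615 exonic bases of Col4a1. Reads there cannot be told apart. The RefSeq position of Col4a1 runs to 11312889 and that of Col4a2 starts at 11312805, so the shared length depends on the annotation. The ratio of Col4a1 to Col4a2 per length was 2.15 ± 0.53 in GPR35-positive and 1.53 ± 0.257 in GPR35-negative libraries (SD, n = 4 each), and the ranges, 1.76 to 2.89 in GPR35-positive and 1.25 to 1.79 in GPR35-negative libraries, overlapped.

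Laminins are the heterotrimers that tie cells to the basement membrane, and 5 of their 11 chains fell. These were the widely used chains Lamb1, Lamb2 and Lamc1 and the alpha chains Lama2 and Lama4, which are found in muscle and vessel basement membranes. Lamc1 had 9.33, 2.58, 16.2 and 10.1 CPM in GPR35-positive replicates 1 to 4, against 52.4, 61, 102 and 83.9 CPM in GPR35-negative ones (-2.97 ± 0.49, edgeR adjusted p = 0.00219). Lama2 changed most, at -4.01 ± 0.89 (adjusted p = 0.00804), but it was at 0 to 2.2 CPM in GPR35-positive libraries. Without replicate 4, the adjusted p was 0.0532 for Lama2, 0.0656 for Lama4, 0.0782 for Lamb2 and 0.0956 for Lamb1. Lama4 also missed the threshold without replicate 1 (0.0507), and Lamb1 without replicate 1 (0.0733), replicate 3 (0.0725), GPR35-positive replicate 1 (0.0547) or 4 (0.0582), or GPR35-negative replicate 3 (0.0526). The epithelial chains Lama3 and Lamb3 were at most 6.03 CPM in any library and did not pass. Lama5, the main alpha chain of adult epithelial and vascular basement membranes, had an adjusted p of 0.0533 without the animal block and 0.0447 with it.

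Nid1, a nidogen that links laminin to collagen IV, fell by 2.74 on the log2 scale (SE 0.57, edgeR adjusted p = 0.00618). Hspg2, the perlecan core protein, had 1.91, 0.268, 3.84 and 3.1 CPM in GPR35-positive replicates 1 to 4, against 8.65, 3.74, 30.5 and 15.6 CPM in GPR35-negative ones. Its ranges overlapped slightly, and its call (-2.67 ± 0.83, adjusted p = 0.0322) ended in 7 of the 12 leave-out fits, at adjusted p of 0.0593 to 0.109. These were the fits without replicate 1, 3 or 4, GPR35-positive replicate 1 or 4, or GPR35-negative replicate 3 or 4. Nid2 did not pass (-1.46 ± 0.71, adjusted p = 0.132) but did with the animal block (adjusted p = 0.0136); 437 of its 4876 exonic bases lie opposite Rtraf, whose reads cannot be told apart there. Col18a1, the multiplexin that holds endostatin, had 5.97, 3.78, 15.5 and 10.7 CPM in GPR35-positive replicates 1 to 4, against 41.1, 20.1, 186 and 106 CPM in GPR35-negative ones. Replicates 3 and 4 were thus high in both groups (-3.30 ± 0.73, adjusted p = 0.00783, and 0.0513 without replicate 4). The related Col15a1 fell less, by 1.46 on the log2 scale (SE 0.31, adjusted p = 0.00673, and 0.0519 without replicate 4). Col13a1, a transmembrane collagen, had an adjusted p of 0.0664, and of 0.0133 with the block, while Col23a1 did not pass (-2.01 ± 1.21, adjusted p = 0.214).

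Collagen VI makes beaded filaments around cells, and its Col6a1 and Col6a2 chains fell together. Col6a1 had 28.1, 6.89, 56.4 and 36.4 CPM in GPR35-positive replicates 1 to 4, against 326, 190, 345 and 335 CPM in GPR35-negative ones (-3.22 ± 0.55, edgeR adjusted p = 0.00251). Col6a2 fell by 3.28 on the log2 scale (SE 0.60, adjusted p = 0.00341). Col6a3, the third chain of the filament, had 5.9, 0, 11.4 and 5.88 CPM in GPR35-positive libraries, against 28.6, 15.2, 65.9 and 67.9 CPM in GPR35-negative libraries. These ranges did not overlap, yet the zero in GPR35-positive replicate 2 widened its error (-2.93 ± 1.04), and its adjusted p was 0.0523, or 0.0195 with the animal block. Col8a1, a short-chain collagen of vessel walls, fell by 2.75 on the log2 scale (SE 0.95, adjusted p = 0.0476). That call ended in 8 of the 12 leave-out fits, at adjusted p of 0.0561 to 0.186, without replicate 1, 3 or 4, GPR35-positive replicate 1 or 4, or GPR35-negative replicate 1, 3 or 4. Col28a1, Col6a4 and Col7a1 did not pass and stayed at or below 6.51 CPM.

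Fibril-associated collagens decorate the surface of collagen fibrils, and the 5 tested ones divided. Col16a1 fell by 2.95 on the log2 scale (SE 0.49, edgeR adjusted p = 0.00213). Col12a1 fell by 3.63 (SE 1.10, adjusted p = 0.0297). Its call ended in 7 of the 12 leave-out fits, at adjusted p of 0.0541 to 0.125, without replicate 1, 3 or 4, GPR35-positive replicate 1 or 4, or GPR35-negative replicate 3 or 4. Col14a1, by contrast, had 62.1, 29.9, 71.3 and 78.1 CPM in GPR35-positive replicates 1 to 4, against 91.9, 47.6, 56.7 and 41.2 CPM in GPR35-negative ones. The GPR35-positive library was the lower one in animals 1 and 2 and the higher one in animals 3 and 4. Its log2 fold change was 0.02 ± 0.34 (adjusted p = 0.961), and -2.38 when scaled to macrophage markers.

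Small leucine-rich proteoglycans, which bind collagen fibrils and limit their width, fell as a whole: all 4 tested members passed, Dcn, Lum, Bgn and Ogn. Dcn, the decorin core protein, had 73, 41.2, 157 and 104 CPM in GPR35-positive replicates 1 to 4, against 923, 1165, 1199 and 1550 CPM in GPR35-negative ones (-3.69 ± 0.41, edgeR adjusted p = 0.000333). Lumican transcript Lum had 18.8, 8.03, 38.1 and 22 CPM in GPR35-positive libraries, against 219, 226, 280 and 300 CPM in GPR35-negative libraries (-3.56 ± 0.42, adjusted p = 0.000477). The GPR35-negative libraries were close to each other for both genes, unlike those of collagen IV. Bgn, the related biglycan, fell by 3.57 (SE 0.39, adjusted p = 0.000321) and Ogn, osteoglycin, by 2.43 (SE 0.48, adjusted p = 0.00485) on the log2 scale. All 4 calls held in each of the 22 other settings tried.

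Elastic fibre genes fell in 10 of 11 cases. Fbln1, a fibulin bound to elastin and to basement membranes, had the smallest p of all members, with 9.82, 5.42, 15.3 and 10.8 CPM in GPR35-positive replicates 1 to 4, against 182, 158, 166 and 196 CPM in GPR35-negative ones (-4.08 ± 0.30, edgeR adjusted p = 5.43e-05). Mfap4, a microfibril-associated protein, fell by 3.98 (SE 0.49, adjusted p = 0.000536), and Efemp1, or fibulin 3, by 3.47 (SE 0.37, adjusted p = 0.000284). Fbln5, which helps to assemble elastin, fell by 3.39 on the log2 scale (SE 0.44, adjusted p = 0.000719). Eln, elastin itself, had 9.87, 0.167, 21 and 5.88 CPM in GPR35-positive replicates 1 to 4, against 122, 19.7, 135 and 99.3 CPM in GPR35-negative ones. GPR35-negative replicate 2 lay inside the GPR35-positive range, and the call was weak (-3.34 ± 1.02, adjusted p = 0.0308). It ended in 7 of the 12 leave-out fits, at adjusted p of 0.0537 to 0.134, without replicate 1, 3 or 4, GPR35-positive replicate 1 or 4, or GPR35-negative replicate 3 or 4. Fbn1 (-2.96 ± 0.69) and Fbln2 (-2.89 ± 0.64) lost their calls without replicate 4, at adjusted p of 0.0691 and 0.051, and Fbln7 (-4.17 ± 1.01) without replicate 3, at 0.0616. Efemp2, or fibulin 4, which recruits lysyl oxidase to elastin, fell least of the members that passed. It had 15.3, 12.4, 15.4 and 16.2 CPM in GPR35-positive replicates 1 to 4, against 31.8, 26.6, 41.5 and 37.3 CPM in GPR35-negative ones (-1.21 ± 0.18, adjusted p = 0.0013). Fbn2 did not pass (-1.94 ± 1.03, adjusted p = 0.164).

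The lysyl oxidases, which crosslink collagen and elastin, split into 4 genes that fell and 1 that was higher. Loxl1, the enzyme tied to elastic fibres, had 1.61, 1.2, 3.99 and 2.22 CPM in GPR35-positive replicates 1 to 4, against 22.5, 18.8, 29.4 and 26.6 CPM in GPR35-negative ones (-3.42 ± 0.39, edgeR adjusted p = 0.000411). Loxl4 (-3.33 ± 0.49), Lox (-3.15 ± 0.61) and Loxl2 (-3.07 ± 0.64) fell alongside it, as did Pcolce, which enhances procollagen cleavage (-3.25 ± 0.45, adjusted p = 0.00102). Loxl3 had 89.3, 101, 81.6 and 75 CPM in GPR35-positive replicates 1 to 4, against 55.6, 34.3, 42.7 and 29.5 CPM in GPR35-negative ones. The groups did not overlap, the GPR35-positive library was the higher one in all 4 animals, and the log2 fold change was 1.10 ± 0.21 (adjusted p = 0.00372). That direction reversed, to -1.39 (adjusted p = 0.00798), when libraries were scaled to macrophage markers, a scaling that moved the median of all genes to -2.62; Loxl3 lay 1.24 above that median, and 1.15 above the median of all genes in the TMM-scaled fit. In total 535 of the 4098 exonic bases of Loxl3 lie opposite Htra2, so reads of the pair cannot be told apart there; Htra2 averaged 85 CPM in GPR35-positive and 64.3 CPM in GPR35-negative libraries (0.40, adjusted p = 0.132).

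Matricellular and adhesive glycoproteins fell in 6 of 7 cases. Sparc, a collagen-binding glycoprotein, had 63.5, 40.2, 192 and 92.8 CPM in GPR35-positive replicates 1 to 4, against 667, 383, 1479 and 1559 CPM in GPR35-negative ones (-3.39 ± 0.61, edgeR adjusted p = 0.00323). Postn, periostin, had 67.2, 17.8, 117 and 82.4 CPM in GPR35-positive libraries, against 751, 519, 869 and 874 CPM in GPR35-negative libraries (-3.40 ± 0.51, adjusted p = 0.00136). No GPR35-positive library reached the lowest GPR35-negative one for either gene. Mgp, an inhibitor of calcification, fell by 3.74 (SE 0.54, adjusted p = 0.00114) and Tnc, tenascin C, by 3.50 (SE 0.63, adjusted p = 0.00323) on the log2 scale. Sparcl1, a relative of Sparc, fell by 2.76 (SE 0.69, adjusted p = 0.0136, and 0.0813 without replicate 4). Vcan, the large proteoglycan versican, which monocytes also express, was low in every library, with 0.467, 0.736, 2.72 and 2.58 CPM in GPR35-positive replicates 1 to 4, against 6.75, 5.11, 12.8 and 6.98 CPM in GPR35-negative ones. Its call (-2.28 ± 0.64, adjusted p = 0.0215) ended without any 1 of the 4 animals or without GPR35-negative replicate 3, at adjusted p of 0.0513 to 0.0633.

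Fn1, the fibronectin gene, was the matricellular exception. It had 149, 220, 220 and 177 CPM in GPR35-positive replicates 1 to 4, against 121, 68.1, 148 and 141 CPM in GPR35-negative ones. The GPR35-positive library was the higher one in all 4 animals, but the lowest GPR35-positive value and the highest GPR35-negative value were nearly equal. Its log2 fold change of 0.68 ± 0.25 did not pass in edgeR (adjusted p = 0.0578), did in DESeq2 (0.0321) and in limma voom (0.0353), and turned to -1.97 when scaled to macrophage markers. Fn1 was also the fourth highest member per length in GPR35-positive libraries, at 22.7 RPKM (reads per kilobase per M reads), and the 26th in GPR35-negative libraries, at 14.2 RPKM. Col4a3bp, matched by its name, encodes a ceramide transfer protein and is no matrix gene; it did not pass (0.10 ± 0.24, adjusted p = 0.767; -2.36 scaled to macrophage markers).

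Fn1, Loxl3, Col11a2, Col14a1 and Col4a3bp, grouped here after their values were seen, together took 0.0335 ± 0.00355% of counts in GPR35-positive and 0.0266 ± 0.00574% in GPR35-negative libraries (SD, n = 4 each). The other 74 members took 0.0984 ± 0.0628% in GPR35-positive and 1.14 ± 0.428% in GPR35-negative libraries. Col3a1, Dcn, Sparc, Postn and Col1a2, picked as the 5 highest in GPR35-negative libraries, so that a larger share there is built into the choice, held 38.1 ± 10.1% of matrix counts in GPR35-positive and 58.8 ± 2.03% in GPR35-negative libraries. The ratio of Fn1 to Col1a1 per length was 3.78, 38.5, 2.97 and 4.59 in GPR35-positive replicates 1 to 4, against 0.353, 0.41, 0.305 and 0.206 in GPR35-negative ones. Each gene alone had ranges that did not overlap, in opposite directions, so this ratio could not overlap and adds no further evidence.

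Ratios between falling genes were also computed. Per length, Col1a2 stood to Col1a1 at 2.83 ± 0.749 in GPR35-positive and 2.57 ± 0.535 in GPR35-negative libraries. Col6a1 stood to Col6a2 at 1.13 ± 0.131 in GPR35-positive and 1.11 ± 0.189 in GPR35-negative libraries. Dcn stood to Lum at 4.41 ± 0.555 in GPR35-positive and 4.64 ± 0.523 in GPR35-negative libraries (SD, n = 4 each). The ratio of Col5a1 to Col5a2 was 0.6 ± 0.381 in GPR35-positive and 0.89 ± 0.182 in GPR35-negative libraries, with 0.0704 in GPR35-positive replicate 2, and that of Lamb1 to Lamc1 was 1.24 ± 0.706 in GPR35-positive and 1.4 ± 0.601 in GPR35-negative libraries, with 0.223 in GPR35-positive replicate 2. The groups overlapped in each of these 5 ratios. In level per length, Col3a1 led in GPR35-positive libraries at 48 ± 30.2 RPKM. Dcn followed at 44.6 ± 23.5 and Sparc at 36.8 ± 25.3 RPKM. In GPR35-negative libraries Dcn led at 575 ± 123 RPKM, with Col3a1 at 450 ± 169 and Sparc at 387 ± 222 RPKM. Postn followed there at 229 ± 50.4 RPKM. In both groups the mean of Col3a1 did not differ from that of Dcn or Sparc beyond the spread over animals. Within libraries, Sparc stood to Dcn at 0.693 to 0.973 in GPR35-positive and 0.262 to 0.983 in GPR35-negative libraries. Dcn was thus the higher of this pair in every library. The ratio of Col3a1 to Dcn or to Sparc was not computed.

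**Figure D3:**
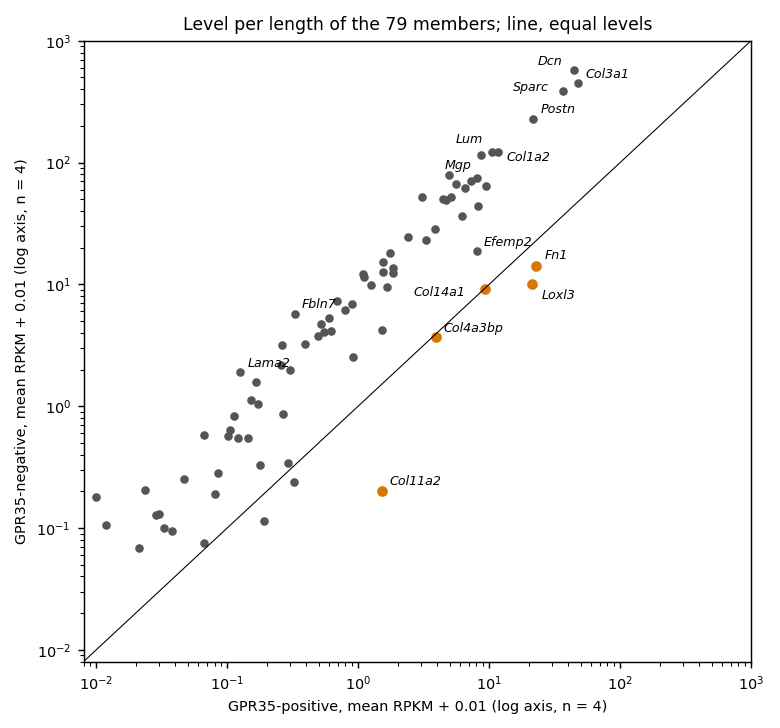
Mean level per length of the 79 members, in RPKM with 0.01 added, in GPR35-positive libraries (horizontal) and GPR35-negative libraries (vertical); both axes are logarithmic, each point is a gene and the diagonal marks equal levels. Most genes lie above the diagonal in a band that runs from Lama2 to Dcn and Col3a1; the orange points are the 5 genes grouped after their values were seen, with Fn1 at 22.7 and 14.2 RPKM. Scaled to macrophage markers, Fn1, Loxl3, Col14a1 and Col4a3bp would lie on the side of the other genes.

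Markers of matrix-producing cells moved with these genes. Their counts stand beside 19.5% of all tested genes that were lower in the same fit. Of the 14 fibroblast markers, 12 fell, with a median log2 fold change of -2.78; the 3 with the smallest p were Gsn (-1.57 ± 0.17, edgeR adjusted p = 0.000265), Cygb (-3.00 ± 0.38, adjusted p = 0.000645) and Clec3b (-3.36 ± 0.51, adjusted p = 0.00141). The list summed to 803 to 1104 CPM in GPR35-positive and 2498 to 3879 CPM in GPR35-negative libraries. Gsn, which macrophages also express, made up most of that, and without it, a choice made after its level was seen, the sums were 41.4 to 145 CPM in GPR35-positive and 371 to 840 CPM in GPR35-negative libraries. No fibroblast marker was at 0 in a whole group. Without replicate 4 the count was 8.

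Endothelial markers fell in 7 of 13 cases, with Tek (-2.89 ± 0.67, edgeR adjusted p = 0.00972), Esam (-3.05 ± 0.86, adjusted p = 0.0223) and Plvap (-3.12 ± 0.93, adjusted p = 0.0281) in front. They summed to 125, 123, 321 and 177 CPM in GPR35-positive replicates 1 to 4, against 305, 305, 2169 and 1229 CPM in GPR35-negative ones. Smooth muscle and pericyte markers fell in 5 of 12 cases, led by Actg2 (-2.56 ± 0.71, adjusted p = 0.0207), Acta2 (-2.79 ± 0.80, adjusted p = 0.0234) and Myl9 (-2.56 ± 0.74, adjusted p = 0.0244). Their sums were 82.2, 68.2, 438 and 204 CPM in GPR35-positive replicates 1 to 4, against 492, 330, 2255 and 1739 CPM in GPR35-negative ones. In both lists GPR35-negative replicates 3 and 4 stood far above replicates 1 and 2. With the animal block, 9 of 13 endothelial and 9 of 12 smooth muscle and pericyte markers fell. Over all tested genes, 19.5% were lower without the block and 20% with it. The counts without the block depended on single libraries: without replicate 4 no marker of either list passed in edgeR, with 4 endothelial and 3 smooth muscle genes at an unadjusted p under 0.05. Leaving out 1 library gave 1 or 2 endothelial genes without GPR35-positive replicate 1, 2 or 4 or GPR35-negative replicate 3 or 4, and at most 1 smooth muscle gene without any of the same 5 libraries. The endothelial count was 3 without replicate 2 and 4 without replicate 3, and the smooth muscle count was 3 without replicate 1 and 10 without GPR35-negative replicate 2.

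Set beside these lists, the matrix groups varied over animals as follows. Collagen IV chains summed to 49.1, 21.7, 135 and 55.9 CPM in GPR35-positive replicates 1 to 4, against 214, 170, 826 and 424 CPM in GPR35-negative ones. They were highest in replicate 3 of each group, as were the sums of the fibrillar collagens, laminins, elastic fibre genes and matricellular genes and of the vascular and muscle markers. The small leucine-rich proteoglycans summed to 117, 62.6, 252 and 169 CPM in GPR35-positive replicates 1 to 4, against 1412, 1555, 1806 and 2183 CPM in GPR35-negative ones. The fibroblast markers without Gsn summed to 58.9, 41.4, 145 and 89.6 CPM in GPR35-positive replicates 1 to 4, against 445, 371, 829 and 840 CPM in GPR35-negative ones, so replicates 3 and 4 were the higher ones there too. Fibrillar collagens summed to 413, 82.5, 666 and 398 CPM in GPR35-positive replicates 1 to 4, against 3753, 1620, 4618 and 4610 CPM in GPR35-negative ones, with GPR35-negative replicate 2 apart from the rest. All 8 plasma cell markers fell, as did 6 of 7 T cell markers (3 without replicate 3, without GPR35-negative replicate 2 or with the animal block). Among enteric glia markers 2 of 8 fell (6 with the block, and 0 of 6 in edgeR without replicate 4, where 2 had an unadjusted p under 0.05), with a median log2 fold change of -3.16, and among epithelial markers 2 of 10 (4 with the block or without GPR35-negative replicate 1 or 2), with a median of -1.32; 19.5% of all tested genes were lower. Genes of the early response to tissue dissociation ran the other way, 7 of 10 being higher in GPR35-positive libraries. Over all tested genes, 18.5% were higher in the same fit. With macrophage marker scaling 9 of the 10 were lower, as were 86.5% of all tested genes. Their sums were 48094 to 55000 CPM in GPR35-positive and 23442 to 31770 CPM in GPR35-negative libraries. The part that any of these cell types, or the dissociation response, has in the matrix result was not tested.

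**Figure D4:**
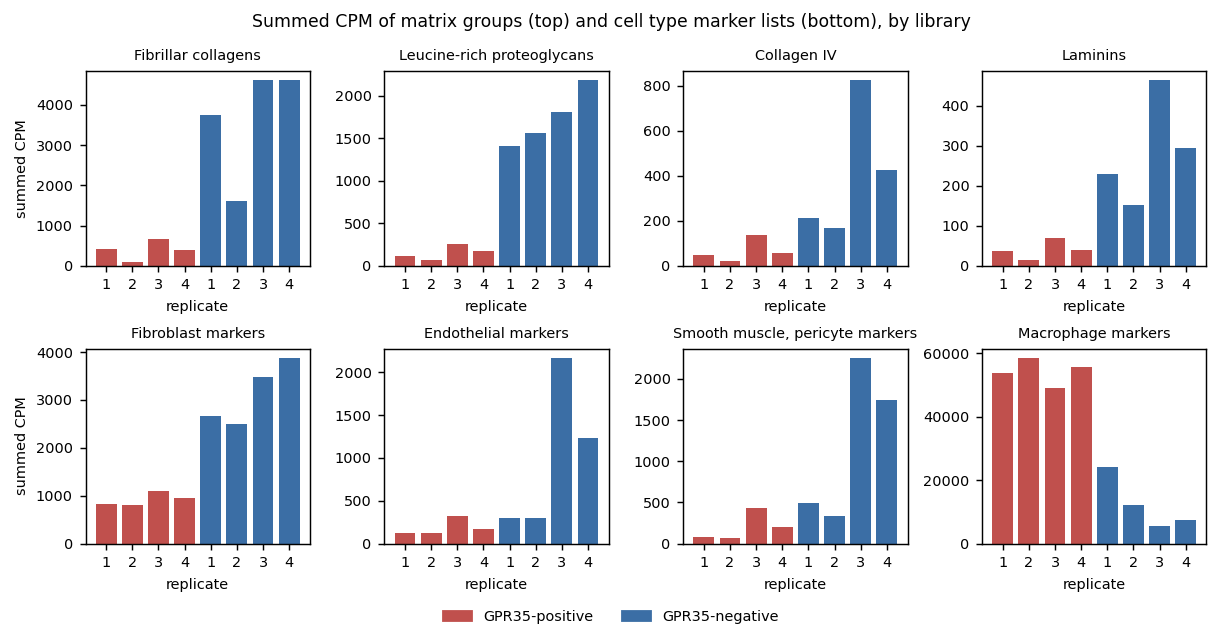
Summed CPM of 4 matrix groups (top) and 4 marker lists (bottom) in each library, on linear axes from 0, with GPR35-positive libraries on the left of each panel. GPR35-negative replicate 3 is the highest library for collagen IV, endothelial and smooth muscle genes, at 826, 2169 and 2255 CPM. The fibroblast panel is mostly Gsn, without which the GPR35-negative sums are 445, 371, 829 and 840 CPM, and macrophage markers run the other way.

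Collagen chains need a folding and secretion machinery, of which 24 genes were in the table and 22 were tested. In GPR35-positive libraries 12 of them fell and 3 were higher, with a median log2 fold change of -1.46. Over all tested genes, 19.5% were lower and 18.5% higher in the same fit, so the 3 higher ones are no excess over that share. Crtap, part of the prolyl 3-hydroxylase complex, fell by 1.36 (SE 0.13, edgeR adjusted p = 0.000188), and Ppib, the cyclophilin of that complex, by 1.56 (SE 0.18, adjusted p = 0.00037) on the log2 scale. Serpinh1, the collagen-specific chaperone HSP47, fell by 3.43 (SE 0.56, adjusted p = 0.00199). The 3 higher ones were Colgalt1 (0.91 ± 0.12, adjusted p = 0.000773), P4ha1 (1.25 ± 0.19, adjusted p = 0.00137) and Plod3 (0.83 ± 0.15, adjusted p = 0.00283), a galactosyltransferase, a prolyl 4-hydroxylase subunit and a lysyl hydroxylase that also act on other proteins with collagen-like domains. With macrophage marker scaling all 22 tested genes were lower, as were 86.5% of all tested genes.

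Matrix receptors divided evenly, 8 lower and 8 higher of 24 tested, with a median log2 fold change of -0.26. In the same fit 19.5% of all tested genes were lower and 18.5% were higher. Lower ones were Sdc1 (-5.48), which marks plasma cells and stands on that list too, Sdc2, Ddr2, Itgb3, Itga11, Itga3, Mrc2 and Bcam. Higher ones were Itgav, Itga9, Itgb5, Lair1, Sdc3, Cd44, Itga5 and Itga6. Itgav, the alpha subunit of receptors for fibronectin and vitronectin, had a log2 fold change of 2.67 ± 0.34 (edgeR adjusted p = 0.000683), with 132 to 278 CPM in GPR35-positive and 18.9 to 49 CPM in GPR35-negative libraries. Summed over the list, receptors were at 3807 to 4672 CPM in GPR35-positive and 2602 to 3170 CPM in GPR35-negative libraries, opposite to the direction of the matrix genes themselves. The higher calls hold relative to the TMM-scaled total. With macrophage marker scaling 17 of the 24 were lower and 1 was higher. In that fit 86.5% of all tested genes were lower and 0.536% were higher, so the 17 lower ones are no excess over that share. The lower count was 4 without replicate 4 and 5 without GPR35-positive replicate 1 or 4 or GPR35-negative replicate 3.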

How the data were processed

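RNA of 8 libraries, a GPR35-positive and a GPR35-negative one from each of 4 animals, was amplified with SMART-Seq v4 and made into Nextera XT libraries, per the labels' protocols; the method marks no strand and has no molecular identifiers. The submitters' processing notes name the mm10 build, R 3.4.2 and STAR 2.5.2a; no source used here names the counting tool or annotation. The deposited table holds the authors' raw counts per gene and a gene length, which the authors gave in bases, another unit used here only for RPKM. Depth was 16 to 48.6 M counts; PCR copies are counted as reads, so read number understates the error and the spread between animals was used instead.

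Counts of the 14971 genes with a symbol entered edgeR 4.0.16 in R 4.3.3 (TMM, minimum count 10 and minimum total 15, robust quasi-likelihood F-test, no block, Benjamini-Hochberg over 14184 genes, threshold 0.05). The 9 rows without a symbol, 0.0179% of counts, were left out. A log2 fold change takes GPR35-positive minus GPR35-negative, and its SE is its size over the square root of F. RPKM is CPM on TMM sizes per kilobase of the deposited length, and within-animal log2 differences used a prior count of 2.

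Numbered replicates are the same animal by label. Their deviations from the group means correlated across genes at 0.206, 0.206, 0.431 and 0.0637. The highest correlation with the other population of a different animal was 0.104, 0.104, 0.237 and 0.237. Replicate 4 thus correlated less within its own pair, and its pairing rests on the label. The block, RLE and library-size scaling, scaling to 20 macrophage markers with and without the block, no filter, 5 CPM in 4 libraries, DESeq2 1.42.0, limma 3.58.1 voom and 12 leave-out fits were the other settings. Positions come from RefSeq on GRCm38.p6, with all 79 members matched. Shared exonic bases were counted on exon models whose lengths differ from the deposited ones, such as 6615 against 6632 bases for Col4a1. The values of 1 member, which counts in the totals, are not reported here. Members, lists and tests were chosen with earlier results of these data known. The named-gene rule allowed full statistics for up to 4 members of each role with the smallest p, members that were higher and 11 members listed by name. It also allowed them for up to 3 genes of each other list, Gpr35 and Jchain, but not all of these are printed here. Serpinh1, P4ha1 and Plod3 were added after their values were seen. The test was checked on simulated counts, and no pair of replicates agreed within sampling noise (smallest chi-square per degree of freedom 26.1).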

Additional observations from a re-analysis of the deposited data

Results flagged for a closer look

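In 102 groups of 4 libraries checked, 5 held a library far from the other 3 by Dixon's test, where chance flags about 1 group in 20; all 5 were low values in replicate 2. In GPR35-positive replicate 2, Col4a6 was at 0.0335 CPM, and Col4a5 and Col6a3 were both at 0 CPM, while the other GPR35-positive libraries held 0.749 to 0.98, 2.02 to 3.15 and 5.88 to 11.4 CPM of these genes. In GPR35-negative replicate 2, Col1a2 was at 256 CPM and Col6a1 at 190 CPM, below 696 and 326 CPM in the next library. This animal also gave the library with the fewest counts in each group, 33.8 M in GPR35-positive and 16 M in GPR35-negative.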

How the results depend on the processing

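The number of falling matrix genes, 49, was 47 to 69 under the other scalings, filters, tools and blocks. It was 30 to 51 without 1 animal and 41 to 51 without 1 library. These counts are not all alike. With macrophage marker scaling 67 of 72 were lower, where 86.5% of all tested genes were lower, and the filter of 5 CPM in 4 libraries tested fewer members. With the animal as a replicate block 54 matrix genes fell, and no call was lost. The count of higher matrix genes, 2, was 1 with library-size scaling, 0 with macrophage marker scaling with and without the block, 4 in DESeq2 with the block, and 1 to 3 in the leave-out fits. Library-size scaling moved the median of all genes to -0.34, with 4191 lower and 1695 higher. Macrophage marker scaling moved it to -2.62, with 12272 lower and 76 higher, or 11656 and 102 with the block. The leave-out fits gave 1680 to 2382 lower and 1572 to 2425 higher genes without 1 animal, and 2034 to 3035 and 1989 to 2931 without 1 library. The matrix median of -2.95 was -5.68 with macrophage marker scaling, -5.75 with the block added, -3.13 to -2.80 without 1 animal and -3.47 to -2.61 without 1 library. Against macrophage marker counts in place of all counts, the GPR35-positive matrix share was 0.0217 times the GPR35-negative one. Under macrophage marker scaling without and with the block, 4 genes reversed: Loxl3 (-1.39 and -1.25), Fn1 (-1.97 and -1.67), Col14a1 (-2.38 and -2.38) and Col4a3bp (-2.36 and -2.24); by construction this scaling lowers every gene relative to the markers that are higher in GPR35-positive libraries. A zero in 1 library widens the error of genes at a few CPM. Col6a3, for example, had 0 counts in GPR35-positive replicate 2 and 241 to 457 in the other GPR35-positive libraries. It had 256 counts in GPR35-negative replicate 2, the library with the lowest total. The cause of such zeros was not tested.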
